A study of Mus musculus with 2 samples.

Results

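The small RNAs described here are the sequences of 18 to 23 nt from mouse testis that match no annotated microRNA, ribosomal, small nuclear, small nucleolar or mitochondrial RNA gene in sense (GENCODE M21). There were 1612195 such sequences among the 22794309 distinct sequences of 18 to 40 nt in the series. They were chosen by length and annotation, and no count entered the rule, though earlier results of these data were known when it was set. Testes were taken at 11 days after birth from Tdrkh-/- and Tdrkh+/- mice on a C57Bl6/129 background, and 5 pairs were pooled into 1 library per genotype. Exons 2 to 4 of Tdrkh, which include its start codon, had been removed from a floxed allele with EIIa-Cre, and the heterozygotes carry 1 copy of that deletion. The floxed allele was made in hybrid C57Bl6/129SEV embryonic stem cells, and the Cre transgene was bred out. Independent knockout lines were made, and which of them gave the library is not given in the sources used here. RNA of 15 to 40 nt was cut from a gel.

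Length is a guide to which proteins hold a small RNA. MicroRNAs and endogenous small interfering RNAs are cut by Dicer and loaded into Argonaute proteins. PIWI-interacting RNAs (piRNAs) are longer, are made from single-stranded precursors without Dicer, and usually begin with U. TDRKH, which carries Tudor and KH domains, sits on the outer face of mitochondria, where piRNA precursors are processed. RNAs of microRNA length that are no microRNA can be variants of microRNAs, trimmed pieces of longer small RNAs, or fragments of messenger and structural RNA.

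The sequences that carry the main patterns fall into 3 sets. The first shows the most abundant microRNA of both libraries and members within 1 base of it. The mature form is from RefSeq (GRCm38.p6, U letters), with the seed, bases 2 to 8, in capitals. In the reads below it, T letters stand for U, and the capital marks the base that differs.
mmu-miR-10b-5p: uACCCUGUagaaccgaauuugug
most abundant exact read: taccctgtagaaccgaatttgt
variant A2U: tTccctgtagaaccgaatttgt
variant C4U: tacTctgtagaaccgaatttgt
variant U8G: taccctgGagaaccgaatttgt
variant C3U: taTcctgtagaaccgaatttgt

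The second set shows sequences nearly confined to a single library, all but the heterozygote form found in several genes. In the first pair the capital marks the only base that differs (T2A, counted from the 5′ end), and in the other lines capitals mark bases 1 and 10, the places where piRNAs often have U and A.
knockout form: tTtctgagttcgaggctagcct
heterozygote form: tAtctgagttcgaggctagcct
member in 17 genes: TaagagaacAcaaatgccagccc
member in 5 genes, no knockout reads: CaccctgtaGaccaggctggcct

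The third set shows abundant members that match a single gene in sense and for which few longer reads were found, with capitals again at bases 1 and 10. These were picked after their counts were seen.
Cep78, 20 nt: TcagaaatcTgcctcccgag
Cep78, 21 nt: TcagaaatcTgcctcccgagt
Cep78, 22 nt: TcagaaatcTgcctcccgagtg
Vmn2r76: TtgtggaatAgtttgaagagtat
Zfp704: TaggatagtAccactgatgga
Ing5: TagatctgtGaacatgttag

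Members were more frequent in the Tdrkh-/- library on each scale tried. They made up 4012465 of 60973266 reads in Tdrkh-/- (6.58%, 95% Wilson interval 6.57 to 6.59%) and 2169878 of 43172204 reads in Tdrkh+/- (5.03%, 5.02 to 5.03%). Per microRNA read there were 1.61 member reads in Tdrkh-/- and 0.918 in Tdrkh+/-, giving a ratio of 1.76 (exact 95% bounds 1.75 to 1.76). MicroRNA reads are reads of 18 to 25 nt in sense to microRNA genes, 2486303 and 2363475 in the libraries, and ratios below are Tdrkh-/- over Tdrkh+/- per such read. Reads were counted without molecular identifiers, so all intervals cover counting error only. With 1 library per genotype no test could be made and no difference had a replicate check.

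Most distinct members were rare. Of 967357 distinct members in Tdrkh-/- and 748471 in Tdrkh+/-, 71.5% and 74.0% were read once, and these carried 17.2% and 25.5% of the member reads. The 103633 members found in both libraries carried 56.7% and 55.8% of the reads. The 100 most abundant members of each library held 21.2% of the member reads in Tdrkh-/- and 17.96% in Tdrkh+/-. Read shares below are therefore led by abundant sequences, and shares of distinct sequences by rare ones.

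A large minority of the member reads were near-microRNAs, and per microRNA read these differed little between the genotypes. Reads whose first 18 nt lay exactly in a microRNA gene while the 3′ end did not were 223695 in Tdrkh-/- and 191227 in Tdrkh+/-. Reads whose first 18 nt had 1 mismatch to a microRNA gene were 498796 and 452780. Together they made up 18.01% (95% Wilson interval 17.97 to 18.04%) of member reads in Tdrkh-/- and 29.7% (29.6 to 29.7%) in Tdrkh+/-. Their ratio was 1.07 (1.06 to 1.07). That scale is made of the RNAs they resemble, and per read listed the ratio was 0.794, so the direction turns with the scale. The other members numbered 3289974 and 1525871 reads, giving a ratio of 2.05 (exact 95% bounds 2.05 to 2.05).

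Variants of miR-10b, a Hox cluster microRNA, were the largest group of near-microRNAs. They had 282839 reads in Tdrkh-/- and 274577 in Tdrkh+/-, which is 39.1% and 42.6% of the near-microRNA reads. Per 100 reads that match Mir10b exactly there were 23.6 and 23.1 of them. For Mir470, of an X-linked testis cluster, the values were 32.6 and 32.7 per 100 exact reads, and for Mir143 they were 30.6 and 31.9. Mir127 had 93.5 and 79.9, and the Mir3107 and Mir486 pair had 166.8 and 160.02, so that near-matches outnumbered exact matches there. The most abundant near-match of that pair was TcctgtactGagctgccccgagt, with 14412 and 9085 reads. The rate of Mir127 differed most between the libraries among the 5 groups named here, and that of Mir470 least.

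Single-base changes of the most abundant miR-10b read were uneven along its length. The exact 22 nt read had 955076 reads in Tdrkh-/- and 950570 in Tdrkh+/-. The most frequent change among the members, A2U, had 32756 and 38860 reads, which is 34.3 and 40.9 per 1000 exact reads. C4U followed with 21425 and 20114 reads, U8G with 14005 and 13063, and C3U with 12383 and 12884. These 4 changes all lie in the seed shown in capitals above. Changes at positions 1 to 4 had 74232 and 80861 reads. That was 33.9% and 34.2% of the 218876 and 236573 reads with any single-base change, A12U included. A12U was more frequent than any other, with 41858 and 61484 reads. That read matches a microRNA gene exactly, so it is no member and need not come from miR-10b. The 33.9% and 34.2% are therefore not shares of the changes among members, which would be higher. Another member began at the second base of the microRNA, AccctgtagAaccgaatttgtga, with 13931 and 12680 reads. It ended with the same bases as 11483 and 10586 reads of 24 to 37 nt.

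Members without a near-microRNA match were more frequent in Tdrkh-/- at each length from 18 to 23 nt. The ratio was 3.12 (3.09 to 3.15) at 18 nt, 2.73 (2.71 to 2.75) at 19 nt and 2.25 (2.24 to 2.26) at 20 nt. It was 2.08 (2.07 to 2.09) at 21 nt, 1.84 (1.83 to 1.85) at 22 nt and 1.87 (1.86 to 1.88) at 23 nt. Members of a single gene did not follow this order: their ratio was 1.71 at 18 nt, 2.03 at 21 nt and 1.45 at 23 nt. All members without a near-microRNA match had most reads at 22 nt, with 29.3% in Tdrkh-/- and 32.6% in Tdrkh+/-, followed by 23 nt with 26.5% and 29.03%. Those of a single gene had most at 23 nt, with 27.6% and 32.2%. By comparison, sequences of 24 to 30 nt outside the same RNA genes had a ratio of 0.451 (0.450 to 0.451) and those of 31 to 37 nt had one of 4.71 (4.70 to 4.71).

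Reads in sense to a transcript differed more between genotypes than reads with no match did. Sense reads were 34.9% (95% Wilson interval 34.8 to 34.9%) of all member reads in Tdrkh-/- and 26.5% (26.5 to 26.6%) in Tdrkh+/-, with a ratio of 2.31 (2.30 to 2.32). Antisense reads alone were 2.45% and 1.24%, with a ratio of 3.47 (3.42 to 3.51). Reads with no transcript match were 62.7% and 72.2%. Without the near-microRNAs those unmatched reads numbered 1815559 and 940694, with a ratio of 1.83 (1.83 to 1.84), and 35.3% and 46.2% of them were sequences read once. Each distinct sequence counted once gave the opposite order for sense matches, 13.8% in Tdrkh-/- and 24.2% in Tdrkh+/-. Among sense reads, those that match several genes differed more between the libraries than those of a single gene. Reads in 2 to 20 genes in sense had a ratio of 3.71 (3.69 to 3.73), and reads in a single gene had one of 1.68 (1.68 to 1.69). Reads in more than 20 genes on 1 strand, which mark repeats, had a ratio of 3.88 (3.84 to 3.92) and made up 4.62% and 2.09% of the member reads.

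A U at the 5′ end was the leading base preference of the members. It was found in 66.5% (95% Wilson interval 66.4 to 66.5%) of member reads in Tdrkh-/- and 65.2% (65.1 to 65.2%) in Tdrkh+/-. Among members without a near-microRNA match the shares were 66.2% and 63.7%, and over distinct sequences 62.8% and 61.9%. At positions 2 to 18 of these members the U share of distinct sequences in Tdrkh-/- lay between 21.7% and 27.8%. The preference was weaker than in longer sequences, where 5′ U stood at 75.7% and 82.8% at 24 to 30 nt and at 73.6% and 73.6% at 31 to 37 nt. Single-gene members differed more between genotypes, with 74.8% and 67.8%. In Tdrkh-/- the share ran from 55.05% at 19 nt to 75.2% at 23 nt, and in Tdrkh+/- from 56.3% at 18 nt to 71.2% at 23 nt.

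An A at position 10, the mark of piRNAs made by cleavage opposite a 5′ U partner, was less frequent in members than in longer RNAs. Among member reads without a 5′ U and without a near-microRNA match it was found in 32.9% (95% Wilson interval 32.9 to 33.03%) in Tdrkh-/- and 27.7% (27.6 to 27.9%) in Tdrkh+/-. The same share was 52.9% and 39.4% at 24 to 30 nt and 63.7% and 45.4% at 31 to 37 nt. Among single-gene members it was 28.5% and 29.6%, and the order of the genotypes turned. Antisense members stood apart in the knockout with 75.4%, against 45.3% in Tdrkh+/-. Counted once per distinct sequence, antisense members had 38.0% and 38.6%, so the knockout's high value rested on abundant sequences.

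The base that follows a member in its transcript was most often U. Among members of a single gene, the next base after the 3′ end was U in 47.96% of reads in Tdrkh-/- and 41.1% in Tdrkh+/-, while U makes up 25.5% of the bases of the transcripts used. At 24 to 30 nt the shares were 53.8% and 28.97%, and at 31 to 37 nt they were 60.9% and 37.3%. The members of the heterozygote therefore had a higher next-base U share than its piRNA-size reads. The knockout's members had a lower one than its piRNA-size reads. A U in the next place is a feature of piRNA 3′ ends made by endonuclease cleavage. The base before the 5′ end was less uneven, with C in 31.8% and 33.3% of member reads and G in 10.03% and 12.1%. At the 3′ end itself, members without a near-microRNA match ended most often in C, with 38.0% and 42.2%, against 29.8% and 29.3% in U. Near-microRNAs ended in U in 61.9% and 63.5% of reads.

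Many member reads shared an end with a longer sequence of the same library. A 5′ end counted as shared when the whole member was the start of a sequence of 24 to 37 nt, and a 3′ end when it was the finish of one. The 5′ end was shared by 57.7% (95% Wilson interval 57.6 to 57.7%) of member reads in Tdrkh-/- and by 61.0% (60.9 to 61.1%) in Tdrkh+/-. The 3′ end was shared by 44.3% (44.2 to 44.3%) and 35.5% (35.5 to 35.6%). Members found in no longer sequence at all made up 30.3% and 30.6% of the reads, and those inside a longer sequence with neither end shared 3.38% and 3.19%. The Tdrkh-/- library held 9351278 distinct sequences of 24 to 37 nt to be found in, and the Tdrkh+/- library 10465675, and the part of this difference in the shares was not tested.

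Near-microRNAs accounted for much of the 5′ sharing and little of the 3′ sharing. Their 5′ ends were shared by 80.3% of reads in Tdrkh-/- and 78.7% in Tdrkh+/-, and their 3′ ends by 21.7% and 17.5%. Exact microRNAs of 18 to 23 nt had 99.0% and 99.4% at the 5′ end. Without the near-microRNAs the members' 5′ ends were shared by 52.7% (52.7 to 52.8%) and 53.5% (53.4 to 53.6%), and their 3′ ends by 49.2% (49.2 to 49.3%) and 43.1% (43.03 to 43.2%). Places 1 nt inside the longer sequence served as the comparison, since a member of any length can lie there. At 1 nt from the 5′ end 36.1% and 34.7% of these reads had a partner, and at 1 nt from the 3′ end 36.95% and 39.3%. The excess at the very end was thus 1.46-fold and 1.54-fold for 5′ ends, and 1.33-fold and 1.10-fold for 3′ ends. At 2 nt from the 3′ end the shares were 38.7% and 40.6%. Near-microRNAs had partners 2 nt from the 3′ end in 67.0% and 67.7% of reads, more than at the end itself.

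Members that match a transcript shared ends with longer sequences more often than those with no match. Members in sense to a transcript and without a near-microRNA match had shared 5′ ends in 78.7% of reads in Tdrkh-/- and 74.2% in Tdrkh+/-, and shared 3′ ends in 76.0% and 68.4%. Both ends were shared by 67.4% and 58.7%, and 8.80% and 10.7% lay in no longer sequence. Members in antisense alone had shared 5′ ends in 83.7% and 70.9% and shared 3′ ends in 79.4% and 61.3%, above the sense members in Tdrkh-/- and below them in Tdrkh+/-. Members with no transcript match had shared 5′ ends in 31.4% and 40.7%, and 53.6% and 51.6% of them lay in no longer sequence. A 5′ U went with more sharing: 61.0% and 61.3% of members that begin with U had a shared 5′ end, against 36.5% and 39.9% of the others. Among reads of 18 nt the knockout shared 5′ ends in 19.8% and 3′ ends in 41.2%, and the heterozygote in 42.3% and 33.2%. At 23 nt the 5′ shares were 65.5% and 61.0%.

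The size of the longer partner differed between the libraries. Partners of 24 to 30 nt began with 52.9% of all member reads in Tdrkh-/- and 59.6% in Tdrkh+/-, and partners of 31 to 37 nt with 39.4% and 26.6%. With partners of at least 10 reads the 5′ shares were 41.3% and 39.2%. Counted once per distinct sequence, 5′ ends were shared by 19.4% in Tdrkh-/- and 28.3% in Tdrkh+/-, and 3′ ends by 12.0% and 20.1%, the opposite order to the reads for 3′ ends. Knockout members without a near-microRNA match also had shared 5′ ends with longer sequences of the other library in 51.4% of reads, close to the 52.7% of their own. For heterozygote members the value was 44.3%, against 53.5% of their own.

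Among abundant members, those higher in Tdrkh-/- were the majority once near-microRNAs were put aside. Of the 2102 members with at least 200 reads over both libraries, 935 (44.5%) were higher in Tdrkh-/- by 2-fold or more and 168 (7.99%) lower by as much. Over all 35907 sequences of 18 to 40 nt with as many reads, 52.3% were higher and 35.6% lower by the same mark, so a share of higher calls near this background is no result about the members. Of the 720 near-microRNAs 34 were higher and 19 lower. Of the 1382 others 901 (65.2%) were higher and 149 (10.8%) lower, with a median log2 ratio of 2.32. For this median a count of 0 was set to 3 reads.

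Abundant members often had fewer longer reads than reads of their own. Of the 1382 abundant members without a near-microRNA match, 807 (58.4%) were the start of fewer reads of 24 to 37 nt than their own count over both libraries. For 539 of them their own count was more than 10 times that of the longer reads, and 399 of these matched no transcript. At the other end, 226 (16.4%) had at least 10 times as many longer reads as their own. The shares at least 2-fold higher in Tdrkh-/- were 65.1% and 65.04% in those extreme groups, and 84.5% of the members with many longer reads began with U, against 57.0% of those with few.

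The member with the highest count in either library was the knockout form of the pair shown above. It had 102323 reads in Tdrkh-/- and 0 in Tdrkh+/-, at least 32423-fold higher per microRNA read with the 0 set to 3 reads. The sequence matches 16 genes in sense, among them Ash1l and Eml1, and 10 in antisense. Reads of 24 to 37 nt that begin with it numbered 193908 and 435. Its shorter form of 21 nt had 9725 and 0 reads and its longer form of 23 nt had 5414 and 0. The heterozygote form, which differs at position 2 alone and matches no transcript, had 0 and 2191 reads, at least 768-fold lower in Tdrkh-/-, and 84 and 2443 longer reads began with it. Animals were of a mixed C57Bl6/129 background, and whether the forms come from different copies or strains was not tested.

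Other members found in several genes were also nearly confined to a single library. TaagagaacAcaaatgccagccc, found in 17 genes, had 54099 reads in Tdrkh-/- and 402 in Tdrkh+/-, giving a ratio of 127.9 (exact 95% bounds 116.0 to 141.5). It was the start of 92094 and 1707 longer reads and the finish of 21803 and 1841. Of the 5 members with the highest ratios, a further pair found in over 500 genes had 16347 and 3138 reads in Tdrkh-/- and 0 in Tdrkh+/- (sequences not shown). In the opposite direction, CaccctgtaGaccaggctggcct had 0 and 2961 reads, at least 1038-fold lower. It matches 5 genes in sense, and its first 18 nt lie 1 base from predicted microRNA genes and Mir3470b. A 21 nt member with no transcript match had 1 and 539 reads, and 43 and 7948 longer reads began with it. An 18 nt member with no match had 0 and 1088 reads.

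The abundant single-gene members shown above, picked after their counts were seen, stood high in Tdrkh-/-. Members with few longer reads did not do so more often than others. Of the 539 whose reads outnumbered longer reads more than 10-fold, 65.1% were at least 2-fold higher, against 65.2% of all 1382 abundant ones. The share for single-gene members alone was not taken. No genome was searched, so other copies outside annotated transcripts are not known. The Cep78 member of 21 nt lies in exon 7 of a transcript of Cep78, a centrosomal protein gene, at chr19:15974657-15974677 on the minus strand (GRCm38). It had 13413 reads in Tdrkh-/- and 2196 in Tdrkh+/-, giving a ratio of 5.81 (exact 95% bounds 5.55 to 6.08). Its 20 nt form had 5797 and 1093 reads and its 22 nt form 8407 and 1383, all from the same 5′ end. All members with that first 18 nt had 40847 and 6961 reads, of which 34392 and 5809 matched transcripts, while reads of 24 to 37 nt with it were 238 and 196. Among them, TcagaaatcTgcctcccgaaa, with 1768 and 347 reads and no transcript match, was the most abundant member of both libraries that shared a 3′ end alone.

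The other single-gene members shown above were almost absent from the heterozygote. The Vmn2r76 member, which also matches 1 gene in antisense, in the 3′ UTR of a vomeronasal receptor gene at chr7:86203532-86203554 on the minus strand, had 7812 and 18 reads, giving a ratio of 412.6 (260.9 to 696.5), with 315 and 25 longer reads. The Zfp704 member, in the 3′ UTR of a zinc finger gene at chr3:9432956-9432976 on the minus strand, had 4969 and 29 reads, giving a ratio of 162.9 (113.3 to 243.5), with 217 and 97 longer reads. The Ing5 member, in the 3′ UTR of a growth inhibitor family gene at chr1:93821417-93821436 on the plus strand, had 4830 and 24 reads, giving a ratio of 191.3 (128.4 to 298.9), with 74 and 99 longer reads. In each case the short form far outnumbered the longer reads in Tdrkh-/- and not in Tdrkh+/-. Nearly all reads with the first 18 nt of these 3 had a single length, 23, 21 and 20 nt.

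Abundant families with no transcript match behaved in different ways. A 22 nt member with 33948 reads in Tdrkh-/- and 36971 in Tdrkh+/- had 19 and 30 longer reads that begin with it. Members with its last 14 nt had 59376 and 59804 reads, giving a ratio of 0.944 (0.933 to 0.955), and 92.1% of them were 22 nt. A form of it with the change A3G had 11211 and 9986 reads. A 20 nt member with 27317 and 6828 reads lay in no longer sequence of either library and was the most abundant member of that kind. Members with its last 14 nt had 98010 and 15093 reads, giving a ratio of 6.17 (6.07 to 6.28), of which 41.8% were 20 nt and 28.98% 18 nt. The shared 3′ end of both families follows from how they were picked. The sequences of both families are not shown, since their origin was not established here.

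Host genes were mostly protein-coding. When reads in several genes were divided equally, protein-coding genes held 66.3% of the sense member reads in Tdrkh-/- and 74.5% in Tdrkh+/-, and long noncoding genes 11.5% and 12.9%. Pseudogenes held 13.4% and 5.32%, with a ratio of 5.83 (exact 95% bounds 5.76 to 5.90) against 2.06 (2.05 to 2.06) for protein-coding genes. Pseudogenes also held 18.6% and 4.66% of the 24 to 30 nt reads. Of single-gene member reads in protein-coding transcripts, 69.6% lay in the 3′ UTR in Tdrkh-/- and 65.5% in Tdrkh+/-, 28.03% and 31.2% in the coding part and 2.35% and 3.28% in the 5′ UTR. Of the bases of these transcripts 43.2% are 3′ UTR. The 3′ UTR shares were 73.8% and 72.3% at 24 to 30 nt and 74.8% and 66.5% at 31 to 37 nt.

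The members of most host genes were more frequent in Tdrkh-/-, and their ratio mostly lay between those of the 24 to 30 nt and the 31 to 37 nt reads of the same gene. Among 1362 genes with 200 member reads or more, 626 (46.0%) were higher in Tdrkh-/- by 2-fold or more and 63 (4.63%) lower by as much. Their median log2 ratio was 0.90. Over all 11227 genes with as many reads between 18 and 37 nt, 12.1% were higher and 14.3% lower. In 1262 genes with at least 200 reads in each longer class, the median log2 ratio was 0.88 for members, -1.26 at 24 to 30 nt and 2.20 at 31 to 37 nt. The member ratio lay above that at 24 to 30 nt and below that at 31 to 37 nt in 1036 of them (82.1%), lay at or above both in 187 and at or below both in 35, and the remaining few had the longer classes in the opposite order. Per 100 reads of 24 to 37 nt such genes had a median of 6.42 member reads in Tdrkh-/- and 3.75 in Tdrkh+/-. Scaled per read listed all log2 ratios are lower by 0.42, and per transcript-matching read lower by 0.57.

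The most abundant host was D10Wsu102e on chromosome 10, with 32860 member reads in Tdrkh-/- and 14324 in Tdrkh+/-, giving a ratio of 2.18 (exact 95% bounds 2.14 to 2.22). Its members began at 2798 different first-18-nt sequences, the largest of which held 3.70% of the single-gene reads, and it had 157546 and 268917 reads of 24 to 30 nt. Cep78, next by mean share, had 38370 and 7087 member reads, but a single 5′ end held 88.2% of them and its 24 to 30 nt reads numbered 468 and 1520. Without that 5′ end its single-gene member reads were 4050 and 1293. Sema4b, which encodes a semaphorin, had 8242 and 1649 reads, 52.9% of them from a single 5′ end. Abl2, a tyrosine kinase gene, had 6632 and 3510 reads, spread over 615 starts with 12.9% at the largest. The amino acid transporter gene Slc38a6, with 7664 and 4475 reads, and the deadenylase-related gene Noct, with 5717 and 2955, owed most of their reads to sequences in several genes. Gm37158 on the Y chromosome had 12973 and 555 and Gm42860 on chromosome 5 had 5819 and 3004, both also mostly in several genes. Gm38194 on chromosome 1 had 5306 and 3959, with 84.9% of them in that gene alone.

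Hosts with the lowest ratios were low at each size. Gm49794, a long noncoding gene on chromosome 17 at 27354111 to 27367492, had 163 member reads in Tdrkh-/- and 14177 in Tdrkh+/-, giving a ratio of 0.0109 (exact 95% bounds 0.00932 to 0.0128). Its 24 to 30 nt reads numbered 4803 and 456051 and its 31 to 37 nt reads 1243 and 56424. The neighbouring Gm10505, at 27325035 to 27344833, had 32 and 4544 member reads and 2221 and 250814 reads of 24 to 30 nt. Gm30132 had 1 and 281 member reads, 1700006A11Rik 1 and 234, and 1700008K24Rik 9 and 372. In these 5 genes the log2 ratio at 24 to 30 nt lay between -6.89 and -6.26, so members and piRNA-size reads were low together.

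Hosts with the highest ratios owed them to sequences found in several genes. Gm47591, Gm43414, Gm16195, Ccnb2-ps and Gm10203 each had between 7369 and 7374 member reads in Tdrkh-/- and at most 2 in Tdrkh+/-, almost all from sequences of the knockout form shown above. Among genes with at least 90% of member reads in a single gene, picked after seeing the values, Eddm3b had 496 and 0 reads, at least 157-fold higher, with 3 and 0 reads of 24 to 30 nt. A730020E08Rik had 324 and 0, Xkrx 1202 and 14, Gnb4, which encodes a G protein subunit, 572 and 13, and Tceanc 3999 and 114. A single 5′ end held 94.8% of the reads of Eddm3b, 99.4% of those of A730020E08Rik and 93.3% of those of Xkrx. Not all of these single-gene hosts had few longer reads. Those of 24 to 30 nt numbered 804 and 1140 for Xkrx and 4110 and 1786 for Tceanc. Terc, the telomerase RNA gene, had few longer reads, with 215 and 84 member reads and 0 and 1 reads of 24 to 30 nt. Cdh10, a cadherin gene, also had few, with 568 and 99 member reads and 54 and 37 reads of 24 to 30 nt. Gm42418, which RefSeq lists as a synonym of the ribosomal RNA pseudogene Rn18s-rs5, had 1145 and 4598 member reads, giving a ratio of 0.237 (0.222 to 0.253), and its largest 5′ end had 0 and 2424.

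Tdrkh itself was a minor host. Its members had 48 reads in Tdrkh-/- and 26 in Tdrkh+/-, giving a ratio of 1.75 (exact 95% bounds 1.07 to 2.95). The excised stretch, exons 2 to 4 (chr3:94422802-94424690, GRCm38), had 0 member reads in both libraries, and a count of 0 allows up to 3, so these sequences do not check the genotype labels. Reads of 24 to 30 nt in Tdrkh numbered 264 and 661.

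Small RNA pathway genes were hosts at low counts. All 22 genes listed for the piRNA pathway had member reads and 8 had at least 50. Of these, 3 were at least 2-fold higher in Tdrkh-/- and 0 lower, with a median log2 ratio of 0.85. The corresponding values over all 4809 host genes with at least 50 member reads were 1899 higher, 232 lower and a median of 0.73. At that minimum, over reads between 18 and 37 nt, 12.9% of genes were higher by that mark and 16.3% lower. Piwil2, which encodes the PIWI protein MILI, had 897 and 464 member reads, giving a ratio of 1.84 (1.64 to 2.06). Mov10l1, the helicase that feeds precursors to the pathway, had 55 and 30, and Tdrd1, a Tudor protein gene, 60 and 25. Exd1, also listed for the pathway, went the other way with 122 and 135, giving a ratio of 0.861 (0.668 to 1.11). Over the 8 genes with at least 50 reads the log2 ratio ran from -0.58 to 1.52. Of the 13 microRNA and siRNA pathway genes 11 had at least 50 reads, 5 higher and 1 lower. That lower gene was Ago2, which encodes the slicing Argonaute, with 176 and 438 reads and a ratio of 0.381 (0.318 to 0.455). Its 24 to 30 nt reads numbered 916 and 10560. Tnrc6b, a partner of Argonaute, had 752 and 488, Ago3 had 517 and 456, and Ago1 had 228 and 239.

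Ribosomal protein and histone genes, both highly expressed, had medians near 0, against 0.73 over all 4809 host genes at the same minimum, of which 1899 were higher and 232 lower. Of 83 ribosomal protein genes 41 had at least 50 member reads, with 6 higher, 4 lower and a median log2 ratio of 0.02. Rplp1 had 145 and 388 reads and Rps3 232 and 124, and copies elsewhere in the genome share most reads of Rplp1. Of 82 histone genes 58 had at least 50 reads, with 4 higher, 0 lower and a median of 0.04. Hist1h1a, a linker histone gene, had 415 and 305 reads, and Hist1h2bb 234 and 273. At 24 to 30 nt the medians of the same genes were -2.62 for ribosomal proteins and -2.31 for histones.

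Cell type markers gave few member reads. Spermatogonial genes had 858 reads in Tdrkh-/- and 895 in Tdrkh+/- over 13 genes, with 8 genes at 50 reads or more, 1 higher, 0 lower and a median log2 ratio of 0.42, against the same 0.73 over all hosts. Lin28a, an RNA-binding protein gene of undifferentiated spermatogonia, had 326 and 496, and Sall4 104 and 42. Early meiosis genes had 421 and 296 over 15 genes, and 1 gene was at 0. The 4 of them with 50 reads or more had a median log2 ratio of 0.39, with 1 higher and 0 lower. Stag3, a meiotic cohesin gene, was the higher one with 125 and 50, while the cohesin gene Smc1b had 72 and 60 and the synaptonemal complex gene Sycp1 39 and 44. The 14 Sertoli cell genes had 229 and 277, with Clu at 104 and 112 and 2 genes at 0 in both libraries. Leydig cell genes had 81 and 49, with the cholesterol transporter gene Star at 65 and 27, the steroid enzyme gene Hsd3b1 at 8 and 10 and Cyp17a1 at 0 and 4. Peritubular cell genes had 267 and 126, of which Myh11, smooth muscle myosin, gave 225 and 89. Less RNA per cell and fewer cells of a type cannot be told apart here.

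Over all sequences, an overlap of 10 nt on opposite strands was the most frequent between members and 24 to 30 nt reads. That overlap is made when PIWI proteins cut a target 10 nt from the guide's 5′ end. Weighing each pair by the product of counts, 17.8% of the overlaps of 1 to 18 nt between members and 24 to 30 nt reads were of 10 nt in Tdrkh-/- and 14.7% in Tdrkh+/-, against medians of 3.17% and 4.75% over the other lengths. A pair that lies in several genes was counted whole in each, by count and by distinct sequence alike. By count 9 nt was also frequent, with 15.6% and 7.12%. Counted once per distinct sequence in each gene, the shares were 8.75% and 8.36%. Those of 9 nt were 5.98% and 5.50%, and those of 11 nt 6.02% and 5.77%. Among members themselves the 10 nt share by distinct sequences was 7.57% and 7.35%, against medians of 5.26% and 5.15%, and in Tdrkh+/- 17 nt was higher at 7.59%. By count, however, a few sequences led, since overlaps of 4 nt held 39.0% in Tdrkh-/- and overlaps of 6 nt 29.4% in Tdrkh+/-. Among sequences of a single gene, 7 nt led in both libraries for pairs with 24 to 30 nt reads, at 24.5% and 27.7%. There 10 nt had 14.3% and 8.51%. The summed weight of these pairs by count was 11405384 and 29005432, against 1.88e+10 and 1947513627 over all sequences.

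The overlap left by Dicer, 2 nt shorter than the RNA, was not the leading one by count over all sequences. For pairs of 22 nt members an overlap of 20 nt made up 10.1% in Tdrkh-/- and 1.68% in Tdrkh+/- by count, where 4 nt and 10 nt led with 21.8% and 17.3%. Counted once per distinct sequence in each gene, it made up 6.31% and 6.30%, against medians of 4.33% and 4.17% over the other lengths. For pairs of 21 nt the distinct share of 19 nt was 6.63% and 4.81%, and for pairs of 23 nt that of 21 nt was 6.44% and 7.06%. It led for 22 nt pairs in Tdrkh-/- and for 23 nt pairs in Tdrkh+/-. Among single-gene sequences of 23 nt it led by count in Tdrkh-/- with 31.2%, and had 1.04% in Tdrkh+/-. Overlaps of nearly the whole length were similarly common, with 21 nt at 5.66% and 6.84% among 22 nt pairs.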

How the data were processed

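Small RNA libraries, 1 per genotype from 5 pooled pairs of testes, were sequenced on a Genome Analyzer II. The deposited tables give a raw read count for each distinct sequence, without molecular identifiers; the submitters' processing notes name Bowtie and mm9, and read trimming is not given in the sources used here. Whole sequences were searched for without mismatch, in either direction, in GENCODE M21 transcripts (GRCm38) in Python 3.11.15 with NumPy 2.4.6, Numba 0.67.0, SciPy 1.17.1 and pandas 2.3.3. No genome sequence was used. The annotation holds no nuclear tRNA genes or ribosomal precursor, and adapter sequence was not searched for, so such fragments are not told apart among the members with no match. Members were called near-microRNAs when their first 18 nt lay in a microRNA gene with at most 1 mismatch.

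Reads in several genes were divided equally between host genes. In the overlaps they were not divided, and a pair was counted in each gene that holds it. Counts below 1 were raised to 3 in ratios, making them bounds. Intervals are Wilson for shares and conditional binomial for ratios, at 95%. Overlaps, next bases and regions were taken on 1 transcript per gene. The depth was 60973266 and 43172204 reads. Named sequences are the 10 most abundant by mean share, the 5 with the highest and the 5 with the lowest ratio (200 reads or more), and the first of each end class; named hosts are the 10 most abundant, the 5 highest and 5 lowest, Tdrkh and abundant genes of each list. Some sequences so named are not shown. Members and lists were chosen with earlier results of these data known.

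Strand assignment of 120 sequences and end sets of 60 members were checked by direct search, and 0 differed. On counts simulated for the 1362 host genes, the 2-fold mark took 100 of 100 genes given a 4-fold change, 0 of 100 given a 1.5-fold change and 0 others, and 95.3% of intervals held the true ratio. These draws hold no variation between animals.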

Additional observations from a re-analysis of the deposited data

How the results depend on the processing

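Shares are given as Tdrkh-/- minus Tdrkh+/- in percentage points. No paired analysis was possible because there is 1 library per genotype, and for the same reason none could be left out. The cause of the changes below was not tested. Over distinct sequences the differences were 1.02 for 5′ U, 1.02 for 10A, -8.90 for shared 5′ ends and -8.06 for shared 3′ ends. They were -10.4 for sense matches, 10.7 for no match and 0.386 for the 10 nt overlap, with overlaps counted in each gene. By reads the 10A shares of all members were 35.5% and 33.5%, while those given above leave out near-microRNAs. The values by reads over all members were 1.31, 1.94, -3.30, 8.76, 8.33, -9.54 and 3.16. Without sequences read once they were 0.713, 1.44, -7.74, 9.12, 11.5 and -13.0 for the first 6, the member ratio was 1.95 and the median host log2 ratio 1.13. At 19 to 22 nt 5′ U turned to -0.349, 10A was 3.99, 5′ ends -2.68, 3′ ends 10.1, the ratio 1.76, hosts lower 30 and the median 1.11. Without exact near-microRNAs the values were 1.17, 3.31, -2.51 and 9.08, with a ratio of 1.82. Without all near-microRNAs, a choice made after seeing the data, they were 2.45, 5.20, -0.785, 6.13, 5.23 and -6.47, with a ratio of 2.05. Without other structural gene types 5′ U was 1.16, 5′ ends -3.56, 3′ ends 8.43 and the ratio 1.75. In single genes 5′ U was 6.94, 10A -1.19, 5′ ends -4.24, 3′ ends -0.697 and, added after seeing the data, the overlap 5.75, with 345 hosts higher and 24 lower. With partners of 24 to 30 nt the end shares differed by -6.69 and 7.30, with 31 to 37 nt by 12.8 and 11.1, and with partners of 10 reads or more by 2.03 and 9.77. Per read listed the ratio was 1.31, hosts lower 95 and the median 0.47. Per transcript-matching read they were 1.18, 116 and 0.32, with 412 hosts higher. From 50 reads 1899 hosts were higher and 232 lower, with a median of 0.73. Among named hosts the log2 ratio turned for Gm45343 (-0.047 at 19 to 22 nt, -0.055 per read listed, -0.20 per transcript-matching read), Gm38194 (-0.075 and -0.23 on those scales) and Ccnb2-ps (-1.66 in single genes).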
